A study of Homo sapiens with 16 samples.

Results

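The 8 genes described here encode ligands and co-receptors of blood and lymph vessel growth, namely VEGFA, VEGFB, VEGFC, PGF, ANGPT2, ANGPTL4, NRP1 and NRP2. They were taken by name from a table of 26258 genes, and their RNA levels were followed through 16 libraries of the human hepatocellular carcinoma lines Huh7 and Hep3B. Vascular endothelial growth factors are secreted dimers that bind receptor tyrosine kinases on endothelial cells. VEGFA acts mainly on blood vessels, VEGFC on lymphatic vessels, and the neuropilins are co-receptors that present these ligands and also bind class 3 semaphorins. Sorafenib is a kinase inhibitor used against hepatocellular carcinoma, and VEGF receptors are among its targets, while the tumor cells themselves are a source of the ligands. VEGFA and ANGPTL4 are textbook targets of the hypoxia-inducible factors.

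For each line 4 groups of 2 libraries were compared. Parental and DMSO cells are both labeled untreated. IR cells had been raised in rising concentrations of Sorafenib and CR cells in a constantly high concentration, and both are labeled as treated with 7 μM Sorafenib to keep the resistance. A comparison of IR or CR cells with parental cells thus holds exposure to the drug and selection for resistance together, which cannot be told apart here. Each resistant population is a cultured line derived from the same parental line, the DMSO cells are not described further in the study's text, and the labels do not say whether replicates came from separate cultures, so p-values measure the spread between these libraries only. The libraries are labeled as Huh7 or Hep3B cells alone. In such bulk RNA, fewer cells that express a gene and less RNA of it per cell cannot be told apart.

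Levels are given in CPM, a gene's read count scaled to a common library total, from 46613302 to 76860251 reads per library. Tests are limma fits of log2(CPM + 1) over the 15019 genes that reached 1 CPM in 2 or more libraries, and a gene was called at a Benjamini-Hochberg adjusted p under 0.05 over all of them. Of the 8 genes, 7 passed this filter and ANGPT2 did not. The hepatocyte markers checked the labeled cell type, with a summed level of 7165 to 20708 CPM in the 4 untreated Huh7 and 17252 to 37483 CPM in the 4 untreated Hep3B libraries. They summed to 109 to 2771 CPM in the 4 IR and CR libraries of Huh7 and to 1316 to 10326 CPM in those of Hep3B. Of 9 markers, 8 (IR) and 7 (CR) were called lower in Huh7 cells, beside 21.5% and 16.8% of all genes. In Hep3B cells 3 (IR) and 6 (CR) were called lower, beside 13.7% and 15.2%, and 1 was called higher in IR cells. The part of these markers in the results below was not tested. The 11 endothelial markers summed to 2.2 to 7.1 CPM in untreated and 6.8 to 13 CPM in resistant Huh7 libraries. In Hep3B they summed to 1.6 to 2.1 and 4.1 to 7.5 CPM. ESAM and PECAM1 were the 2 that passed the filter. ESAM was called higher in IR and CR cells of Huh7 (2.40 and 2.67) and of Hep3B (0.97 and 1.40). PECAM1, below 1 CPM in 12 of the 16 libraries, was called lower in IR and CR cells of Huh7 (-1.09 and -0.95) and not called in Hep3B. CDH5, KDR, TEK and TIE1 stayed at or below 1.49 CPM in every library.

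Promoter windows from RefSeq (GRCh38.p14) were matched for 5 of the genes, and the promoters of VEGFA, ANGPT2 and NRP1 were not analysed here. The 250 bases before the annotated start are printed for ANGPTL4 and NRP2, which rose in Hep3B-CR cells, and for VEGFC, which was lower in every resistant library of both lines. Capitals mark the core letters of the hypoxia response element (ACGTG or GCGTG, searched on both strands) and the letters TATAAA of a TATA box. The ANGPTL4 window lies at chr19:8363905-8364154 on the plus strand, the NRP2 window at chr2:205682251-205682500 on the plus strand and the VEGFC window at chr4:176792923-176793172 on the minus strand.
ANGPTL4: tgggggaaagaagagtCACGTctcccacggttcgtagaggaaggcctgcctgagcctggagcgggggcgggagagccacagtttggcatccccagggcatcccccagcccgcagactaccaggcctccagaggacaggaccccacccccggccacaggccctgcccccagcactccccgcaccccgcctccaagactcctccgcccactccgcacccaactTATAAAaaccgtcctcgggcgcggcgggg
NRP2: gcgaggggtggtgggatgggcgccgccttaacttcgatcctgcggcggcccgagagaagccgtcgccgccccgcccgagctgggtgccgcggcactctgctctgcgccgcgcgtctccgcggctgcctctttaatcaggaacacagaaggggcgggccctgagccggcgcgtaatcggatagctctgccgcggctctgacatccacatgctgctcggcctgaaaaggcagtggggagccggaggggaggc
VEGFC: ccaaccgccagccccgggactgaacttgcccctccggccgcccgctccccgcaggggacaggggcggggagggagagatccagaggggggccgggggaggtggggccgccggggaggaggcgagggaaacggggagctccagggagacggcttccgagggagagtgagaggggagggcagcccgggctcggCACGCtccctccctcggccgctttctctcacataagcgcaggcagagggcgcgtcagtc

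ANGPTL4 held 1 match to the hypoxia core, on the strand opposite to the printed one, 234 to 230 bases before the start, and 1 TATA box 29 to 24 bases before it. VEGFC held 1 match to the core, also on the strand opposite to the printed one, 59 to 55 bases before the start, and NRP2 held 0. Neither NRP2 nor VEGFC had a TATA box in this window. ACGTG occurred in 18.5% of all 35116 promoter windows of this length, GCGTG in 32.2% and either of them in 43.2%, so a match is common, while TATAAA occurred in 10.7%. GC boxes (GGGCGG on either strand) were found 2 times in ANGPTL4 and VEGFC and 3 times in NRP2, and 42.6% of the windows held at least 1. The GC content of the windows was 68.8% in ANGPTL4, 70.0% in NRP2 and 74.0% in VEGFC.

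Of the 7 genes tested, 4 were called in Huh7-IR cells against parental cells, where 57.5% of all genes were called. VEGFA and VEGFB were higher (36.0% of all genes) and PGF and VEGFC lower (21.5%). Only PGF, which was lower, was called after constant exposure of Huh7 (1 of 7), against 41.3% of all genes, 24.5% higher and 16.8% lower. In Hep3B-IR cells 4 of 7 were called against 32.0%, with VEGFA, NRP2 and PGF higher (18.3% of all genes) and VEGFC lower (13.7%). Constant exposure of Hep3B gave 4 of 7 against 38.8%, with VEGFA, NRP2 and ANGPTL4 higher (23.6%) and VEGFC lower (15.2%). A looser rule asked for an unadjusted p under 0.05 together with a change of 0.58 or more on the log2 scale. The study's methods give the same cut-offs for edgeR and name no adjustment of p. Under this rule 4 of 7 were called in Huh7-CR cells, PGF lower and VEGFA, VEGFB and NRP2 higher, where 37.0% of all genes were called. It called 14.5% and 8.06% of all genes in the DMSO groups of Huh7 and Hep3B, 21.0% between the Huh7 regimens and 35.0% in the difference between the lines. In Huh7 cells the median log2 fold change of the 7 genes was 0.35 (IR) and 0.75 (CR), beside 0.19 and 0.066 for all genes tested. In Hep3B cells it was 0.93 (IR) and 0.67 (CR), beside 0.061 and 0.11. By adjusted p the number of members called in Huh7-IR cells was thus at the background share, and in Huh7-CR cells below it. IR and CR cells were compared with the same parental libraries, so their values are given side by side.

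**Figure D1:**
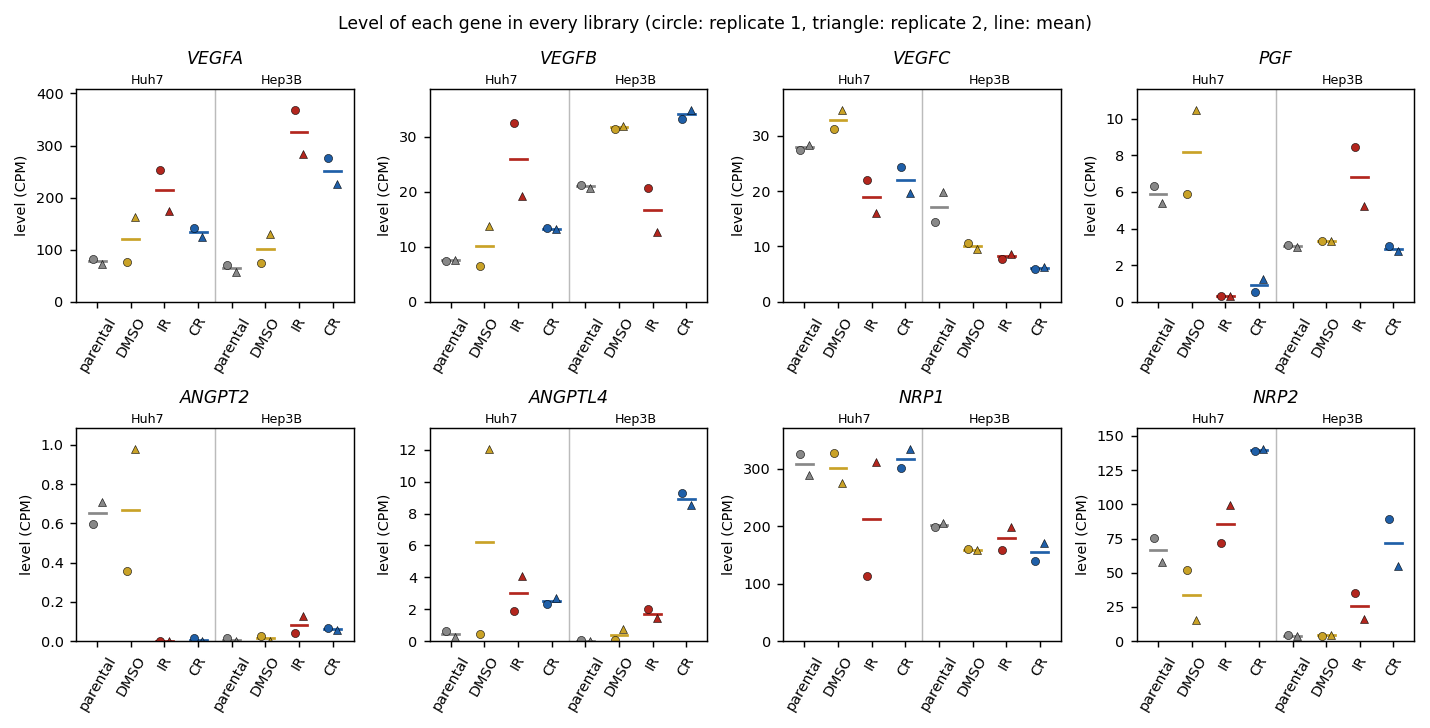
Level of each of the 8 genes in CPM on a linear axis from 0, in the 8 groups of Huh7 (left of the line) and Hep3B (right), with circles for replicate 1, triangles for replicate 2 and a bar for their mean. VEGFA reached 368 CPM in Hep3B-IR cells, PGF fell to 0.3 CPM in Huh7-IR cells, and the triangles of the DMSO groups stand above the circles for VEGFA and ANGPTL4.

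VEGFA, the principal blood vessel growth factor of the family, lies on chromosome 6 at 43737921 to 43754224 (GRCh37, plus strand). In Huh7 cells it stood at 82.2 and 73.1 CPM in the parental libraries (replicates 1 and 2), 76.4 and 163 in the DMSO, 253 and 175 in the IR and 142 and 124 in the CR libraries. Both IR libraries lay above all 4 untreated libraries, and both CR libraries lay above the parental libraries but below DMSO replicate 2. In Hep3B cells VEGFA stood at 71.3 and 57.4 CPM in the parental, 73.8 and 130 in the DMSO, 368 and 284 in the IR and 276 and 225 in the CR libraries. All 4 resistant Hep3B libraries lay above all 4 untreated ones, which 25.2% of all genes did in this line. The log2 fold change against parental cells was 1.43 in Huh7-IR cells (SE 0.33, adjusted p = 0.0029, limma) and 0.77 in Huh7-CR cells (adjusted p = 0.0835, limma). For Hep3B the values were 2.32 after rising doses (adjusted p = 0.000274, limma) and 1.95 after the constant dose (adjusted p = 0.000737, limma), with the same SE.

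The call for VEGFA in Huh7-CR cells rested on the fit and the reference. With only the compared groups in the fit it passed at the same 0.77, and against the DMSO libraries the log2 fold change was 0.25. Against DMSO cells VEGFA was higher by 0.91 in Huh7-IR cells and by 1.71 (IR) and 1.34 (CR) in Hep3B, and each of these was called. The mean change of both regimens was 1.10 in Huh7 and 2.13 in Hep3B cells, and their difference of -1.03 did not pass the test (95% interval -1.92 to -0.15, adjusted p = 0.0723, limma). Regimens were compared too, and VEGFA in IR minus CR cells was 0.66 in Huh7 (95% interval -0.06 to 1.38) and 0.37 in Hep3B cells (-0.35 to 1.10).

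VEGFB, a ligand of FLT1 with a role in lipid uptake and vessel survival, lies on chromosome 11 at 64002056 to 64006736 (plus strand). In Huh7 cells it stood at 7.45 and 7.59 CPM in the parental, 6.5 and 13.8 in the DMSO, 32.5 and 19.2 in the IR and 13.4 and 13.2 in the CR libraries. Here the IR libraries lay above all others of the line, and the CR libraries lay just below DMSO replicate 2. In Hep3B cells VEGFB stood at 21.3 and 20.7 CPM in the parental, 31.4 and 32.0 in the DMSO, 20.6 and 12.6 in the IR and 33.2 and 34.8 in the CR libraries. The CR libraries of Hep3B lay above both parental libraries and the IR libraries below them, though IR replicate 1 only by 20.6 against 20.7 CPM. The increase in Huh7-IR cells was 1.61 on the log2 scale (SE 0.31, adjusted p = 0.000839, limma) and 0.96 after a GC trend was removed, and it was called in both. Not called were 0.75 in Huh7-CR cells (adjusted p = 0.0728, limma) and the values in Hep3B, -0.36 for IR (adjusted p = 0.424) and 0.67 for CR cells (adjusted p = 0.107). Against DMSO cells Hep3B-IR cells gave -0.93, which was called, and the 0.67 of Hep3B-CR cells passed in fits of that line or of the compared groups alone, while it was 0.10 against DMSO cells.

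PGF, the placental growth factor and a further ligand of FLT1, lies on chromosome 14 at 75408537 to 75422329 (minus strand). In Huh7 cells it stood at 6.34 and 5.41 CPM in the parental, 5.9 and 10.5 in the DMSO, 0.33 and 0.30 in the IR and 0.56 and 1.26 in the CR libraries. The 4 resistant Huh7 libraries lay below the 4 untreated ones, as did 16.9% of all genes in that line. These low levels rested on 20 and 14 reads in the IR and on 36 and 96 reads in the CR libraries. The log2 fold change was -2.38 in Huh7-IR (SE 0.26, adjusted p = 1.41e-05, limma) and -1.87 in Huh7-CR cells (adjusted p = 0.000154, limma). The constant of 1 CPM shrinks these values, since mean levels were 5.88 CPM in parental, 0.32 in IR and 0.91 in CR cells. Over the alternative fits they ran from -4.43 to -1.19 (IR) and from -2.78 to -1.01 (CR).

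In Hep3B cells PGF stood at 3.11 and 2.97 CPM in the parental, 3.33 and 3.32 in the DMSO, 8.43 and 5.24 in the IR and 3.02 and 2.76 in the CR libraries. Only the IR libraries lay above the untreated ones, and the CR libraries overlapped the parental libraries. The increase in Hep3B-IR cells was 0.93 (SE 0.26, adjusted p = 0.0179, limma), and it did not pass without either parental library (0.95 and 0.90) or without IR replicate 1 (0.63). In Hep3B-CR cells the value was -0.05 (95% interval -0.63 to 0.52, adjusted p = 0.905, limma). The 2 lines differed in the change of PGF, with a mean of -2.13 in Huh7 and 0.44 in Hep3B cells and a difference of -2.56 (SE 0.32, adjusted p = 0.000118, limma), where 31.6% of all genes differed between the lines. The difference was -2.84 with DMSO cells as the reference, and the constant of 1 CPM shrinks both values.

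VEGFC, the main lymphatic growth factor, lies on chromosome 4 at 177604689 to 177714076 (minus strand). In Huh7 cells it stood at 27.5 and 28.3 CPM in the parental, 31.2 and 34.6 in the DMSO, 22.0 and 16 in the IR and 24.3 and 19.7 in the CR libraries. In Hep3B cells it stood at 14.5 and 19.8 CPM in the parental, 10.7 and 9.47 in the DMSO, 7.72 and 8.66 in the IR and 5.93 and 6.32 in the CR libraries. VEGFC was the member whose 8 resistant libraries all lay below the 8 untreated libraries of their line, which 6.8% of all genes did. The log2 fold change was -0.55 in Huh7-IR cells (SE 0.20, adjusted p = 0.0315, limma). For Hep3B it was -0.97 after rising doses (adjusted p = 0.00273, limma) and -1.33 after the constant dose (adjusted p = 0.000288, limma). In Huh7-CR cells it was -0.33 (adjusted p = 0.2, limma), and -0.56 and called against DMSO cells.

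The reference bore on VEGFC in Hep3B cells, where DMSO against parental cells gave -0.70 (adjusted p = 0.108, limma) and DESeq2 called this difference at -0.80. Against DMSO cells the change of VEGFC in Hep3B-IR cells was -0.27 and not called, while it was -0.63 and called in Hep3B-CR cells. The Huh7-IR call was lost without either parental library (-0.57 and -0.53) and without IR replicate 2 (-0.33), and at the same -0.55 in fits of Huh7 or of the compared groups alone and under the looser rule. Against parental cells the decrease was smaller in Huh7 than in Hep3B cells by 0.71 (SE 0.24, adjusted p = 0.0413, limma), with means of -0.44 and -1.15, and the sign turned to -0.22 with DMSO cells as the reference.

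**Figure D2:**
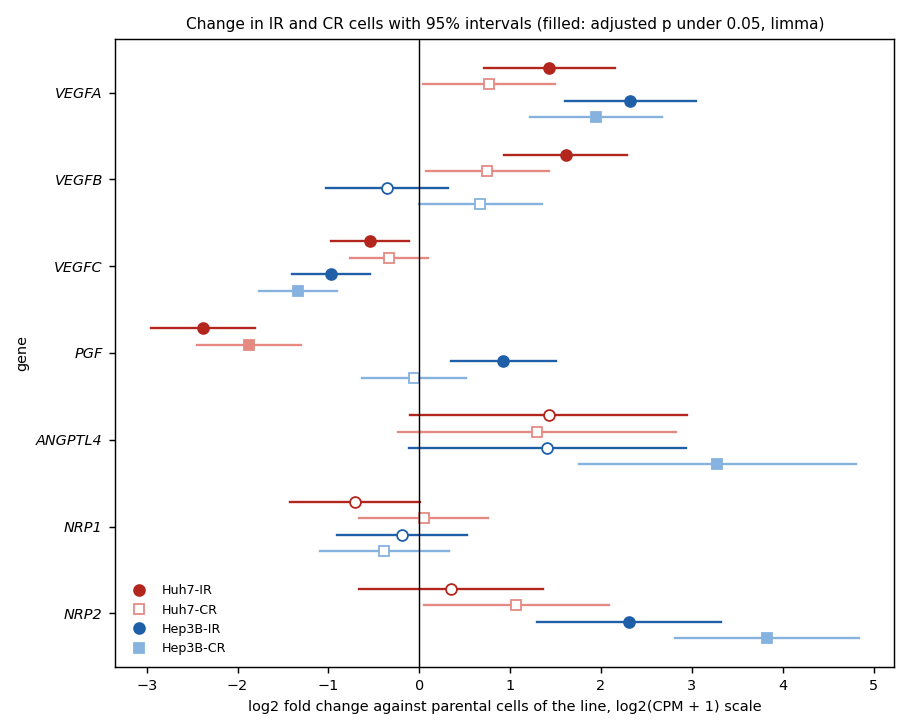
Log2 fold change of 7 genes in IR and CR cells against parental cells of the same line, on the log2(CPM + 1) scale, with 95% intervals as lines. Symbols are filled where the adjusted p was under 0.05 (limma), as for VEGFC in 3 of the 4 groups and for PGF, which lies at -2.38 in Huh7-IR and at 0.93 in Hep3B-IR cells.

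ANGPT2, the angiopoietin that loosens vessel walls by competing at the TEK receptor, was nearly absent from both lines. Its gene lies on chromosome 8 at 6357153 to 6420930 (minus strand), and 9.69% of its exon length lies opposite exons of MCPH1, so without strand-specific counting these reads could not be assigned. In Huh7 cells ANGPT2 stood at 0.60 and 0.71 CPM in the parental and 0.36 and 0.98 in the DMSO libraries. It had 0 reads in both IR libraries and 1 and 0 reads in the CR libraries, which lay below all untreated libraries. The 94 reads of the parental libraries against 0 in IR cells gave a level 23.4-fold lower, with a floor of 3 reads over the group in place of 0. By the exact 95% counting bound it was at least 18.6-fold lower. For CR cells the ratio was 92.5-fold lower with a 95% counting interval of 16.2 to 3692, and 30.8-fold with the same floor in place of the 1 read.

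In Hep3B cells ANGPT2 had 1 and 0 reads in the parental, 2 and 0 in the DMSO, 3 and 9 in the IR and 5 and 3 in the CR libraries. Pooled ratios to parental cells were 12.0 in IR (counting interval 1.78 to 514) and 9.08 in CR cells (1.22 to 403), and 4.01 and 3.03 with the floor in place of the 1 parental read. These exact intervals, here and below, cover counting error and leave out the spread between libraries. In the fit without a filter on low values ANGPT2 was called lower in Huh7-IR (-0.72) and Huh7-CR cells (-0.71), and not called in Hep3B-IR (0.11) or Hep3B-CR cells (0.08).

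ANGPTL4, a secreted inhibitor of lipoprotein lipase that also acts on vessel permeability, lies on chromosome 19 at 8428173 to 8439254 (plus strand). In Huh7 cells it stood at 0.61 and 0.27 CPM in the parental, 0.44 and 12.0 in the DMSO, 1.89 and 4.10 in the IR and 2.30 and 2.72 in the CR libraries. The 4 resistant Huh7 libraries lay above 3 untreated ones and below DMSO replicate 2, which held the highest level of all 16 libraries. In Hep3B cells ANGPTL4 stood at 0.04 and 0 CPM in the parental, 0.05 and 0.75 in the DMSO, 1.98 and 1.46 in the IR and 9.28 and 8.51 in the CR libraries. All resistant Hep3B libraries lay above all untreated ones, as did 25.2% of all genes in this line.

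ANGPTL4 was higher in Hep3B-CR cells by 3.28 on the log2 scale (SE 0.70, adjusted p = 0.00311, limma), and Hep3B-IR cells gave 1.41 (adjusted p = 0.149, limma). A constant of 1 CPM shrinks such values for a gene this low. In reads, the parental Hep3B libraries held 3 against 251 in IR and 1148 in CR cells, ratios of 83.8 (counting interval 28.4 to 409) and 434 (148 to 2109.7). edgeR and DESeq2 on the recovered reads called ANGPTL4 in Hep3B-IR cells at 6.21 and 6.35. In Huh7 cells the values were 1.43 in IR (adjusted p = 0.1, limma) and 1.29 in CR cells (adjusted p = 0.161, limma). Against DMSO cells they turned to -0.17 and -0.31.

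NRP1, the neuropilin that binds VEGFA and SEMA3A, lies on chromosome 10 at 33466420 to 33625190 (minus strand). In Huh7 cells it stood at 326 and 290 CPM in the parental, 327 and 275 in the DMSO, 113 and 311 in the IR and 302 and 334 in the CR libraries. In Hep3B cells it stood at 199 and 206 CPM in the parental, 161 and 158 in the DMSO, 159 and 199 in the IR and 140 and 171 in the CR libraries. The Huh7 groups overlapped, with IR replicate 1 below every other library, while both Hep3B parental libraries lay above the other 6 of that line, by a narrow gap to IR replicate 2. NRP1 was called in none of the 4 comparisons with parental cells by the limma fit of all libraries, with unadjusted p between 0.0516 and 0.89. The value in Huh7-IR cells was -0.71 (95% interval -1.42 to 0.01, adjusted p = 0.0828), and it was 0.02 without IR replicate 1. It was called with TMM factors (-0.90) and without IR replicate 2 (-1.43). The interval was -0.67 to 0.76 for Huh7-CR cells, and for Hep3B it was -0.90 to 0.52 (IR) and -1.10 to 0.33 (CR).

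NRP2, the neuropilin that binds VEGFC and SEMA3F, lies on chromosome 2 at 206546714 to 206662857 (plus strand). In Hep3B cells it stood at 4.08 and 3.94 CPM in the parental, 3.98 and 4.28 in the DMSO, 35.1 and 16 in the IR and 89.2 and 54.7 in the CR libraries. The untreated Hep3B libraries were close to each other, and every resistant library lay above them, a separation that 25.2% of all genes showed in this line. NRP2 was higher by 2.31 after rising doses (SE 0.47, adjusted p = 0.0026, limma) and by 3.82 after the constant dose (adjusted p = 7.65e-05, limma).

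In Huh7 cells NRP2 stood at 75.2 and 57.8 CPM in the parental, 51.9 and 15.1 in the DMSO, 71.6 and 99.2 in the IR and 139 and 140 in the CR libraries. Both CR libraries lay above every other Huh7 library, whereas IR replicate 1 fell between the parental libraries. Values of 0.35 in Huh7-IR (adjusted p = 0.546, limma) and 1.07 in Huh7-CR cells (adjusted p = 0.0858, limma) were not called. Against DMSO cells they were 1.55 and 2.27 and both were called. NRP2 changed less in Huh7 than in Hep3B cells, with means of 0.71 and 3.07 and a difference of -2.36 (SE 0.57, adjusted p = 0.00821, limma), which was -1.12 and not called with DMSO cells as the reference.

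Between genes, levels were compared per kilobase of exon. Summed over VEGFA, VEGFB, VEGFC, VEGFD and PGF, the ligands reached 21.9 to 34.4 CPM per kb in untreated and 23.2 to 42.9 in resistant Huh7 libraries. In Hep3B they reached 21.9 to 29.6 in untreated and 30.5 to 40.5 in resistant libraries. VEGFA made up 17.5% to 30.5% of that sum in untreated and 43.1% to 64.7% in resistant Hep3B libraries. VEGFC made up 38.5% to 52.4% in untreated and 19.6% to 35.7% in resistant Huh7 libraries. These shares depend on the length used, since the union of all VEGFA exons spans 14431 bases and its canonical transcript 3609. Per kb of canonical transcript VEGFA made up 41.9% to 60.1% in untreated and 72.5% to 84.9% in resistant Hep3B libraries. This length was chosen after the data were seen. By it VEGFC made up 20.4% to 31.9% in untreated and 9.88% to 18.6% in resistant Huh7 libraries. VEGFA made up 48.98% to 59.99% in untreated Huh7 libraries by this length, but 23.2% to 32.8% by the union of exons. Which of VEGFC and VEGFA was the larger part there thus depended on the length.

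For the neuropilins the share of NRP2 in the sum of NRP1 and NRP2 per kb was 4.35% to 16% in untreated and 20.9% to 34.4% in resistant Huh7 libraries. In Hep3B it was 1.56% to 2.19% in untreated and 6.24% to 34.5% in resistant libraries. The ranges of untreated and resistant libraries did not overlap in either line, and how many other gene pairs do so was not tested. The highest Huh7 share, 34.4%, was that of IR replicate 1. There NRP2, at 71.6 CPM, lay between the parental libraries (75.2 and 57.8 CPM), and NRP1 was at 113 CPM, its lowest level in any library. With canonical transcripts the resistant ranges were 21.3% to 34.9% and 6.38% to 35.1%. NRP1 remained the larger part in all 16 libraries.

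**Figure D3:**
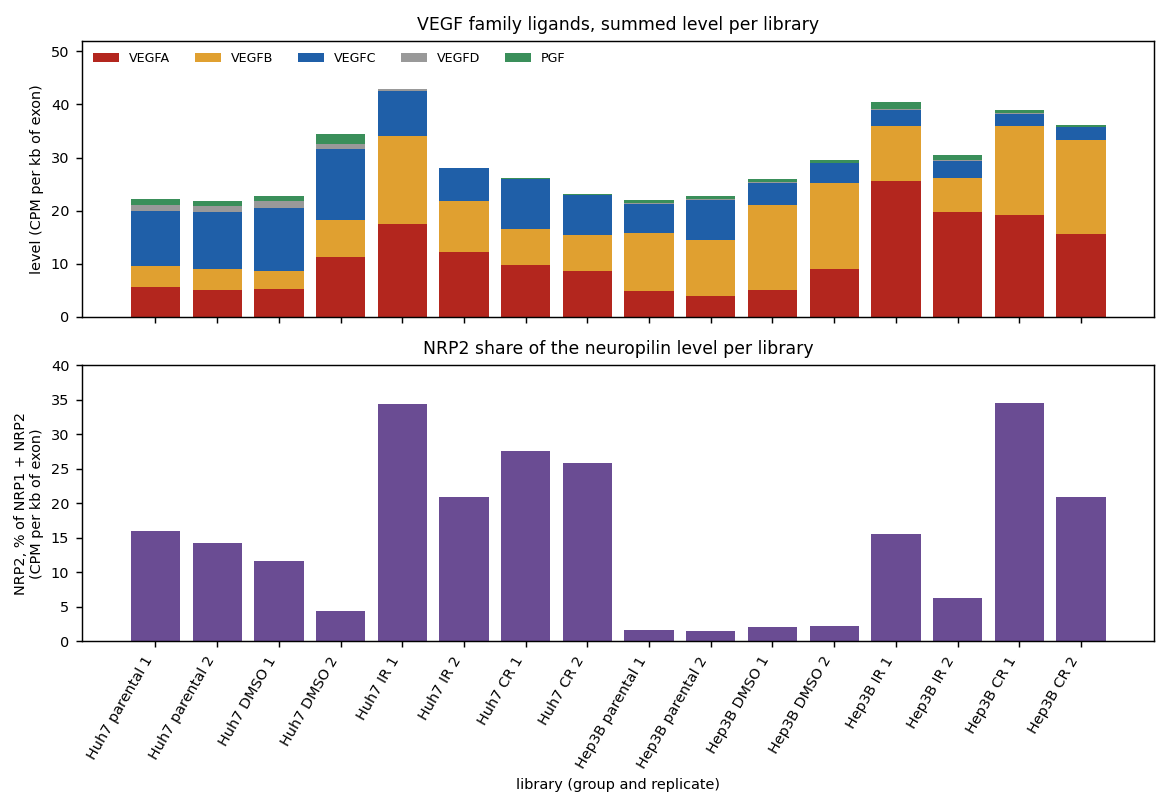
Stacked bars give the level of the 5 VEGF family ligands per library in CPM per kb of exon, and the lower bars give NRP2 as a percentage of NRP1 and NRP2. The VEGFA part grows to 25.5 CPM per kb in Hep3B-IR replicate 1, and the NRP2 share is 1.56% to 2.19% in untreated Hep3B libraries and 6.24% or more in the resistant ones.

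Untreated cells were compared to see how far the reference itself moved. None of the 7 genes was called by limma in DMSO against parental cells of Huh7, where 5.18% of all genes were called, and 2 had an unadjusted p under 0.05 (ANGPTL4 at 1.60 and NRP2 at -1.20). In Hep3B cells 0 were called against 1.64% of all genes, and 1, VEGFC, had an unadjusted p under 0.05. edgeR called 0 in both lines (5.71% and 0.513% of all genes), and DESeq2 called 1 of 7 in each, ANGPTL4 in Huh7 (14.5% of all genes) and VEGFC in Hep3B cells (4.31%). Without DMSO replicate 1, limma called 3 genes in Huh7 cells, VEGFA at 1.06, ANGPTL4 at 3.19 and NRP2 at -2.06, where 27.0% of all genes were called, and without DMSO replicate 2 it called 0, against 0.985% of all genes.

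DMSO replicate 2 stood apart in VEGFA and ANGPTL4 in both lines. VEGFA was 2.13 times its level in replicate 1 in Huh7 and 1.77 times in Hep3B cells, and ANGPTL4 had 837 reads against 32 in replicate 1 in Huh7 and 55 against 4 in Hep3B. A list of 13 hypoxia-induced genes without the members was higher in replicate 2 for 13 of 13 genes in both lines, where 56.6% of all genes in Huh7 and 49.0% in Hep3B were higher. Its median difference was 1.24 in Huh7 and 0.50 in Hep3B on the log2 scale. CA9, a carbonic anhydrase induced by low oxygen, stood at 0.15 CPM in replicate 1 and 9.15 in replicate 2 in Huh7, and at 3.88 and 39.5 CPM in Hep3B. The part of these genes in the levels of VEGFA and ANGPTL4 was not tested. GC content moved with these replicate differences too, but not in the DMSO pairs alone. Across 14424 genes the Spearman correlation between GC and the replicate difference was 0.52 for the DMSO pair of Huh7 and 0.39 for that of Hep3B. The parental pair of Huh7, the main reference of that line, gave -0.53. The remaining pairs ran from -0.28 to 0.28. These values are a description since genes are not independent.

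**Figure D4:**
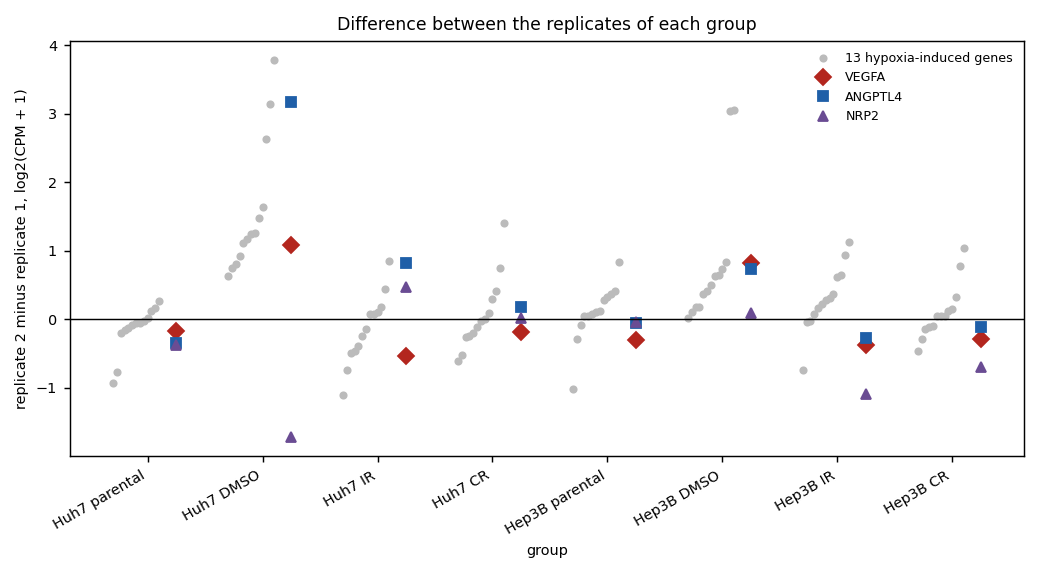
Replicate 2 minus replicate 1 in each of the 8 groups on the log2(CPM + 1) scale, for VEGFA, ANGPTL4 and NRP2 (coloured symbols) and 13 hypoxia-induced genes (grey points, in ascending order). In both DMSO groups all 13 grey points lie above 0, VEGFA lies at 1.08 and 0.81 and ANGPTL4 at 3.18 and 0.74, while NRP2 lies at -1.72 in Huh7 DMSO cells.

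The regimens were compared directly. In Huh7-IR against Huh7-CR cells limma called 0 of 7, where 16% of all genes were called, edgeR and DESeq2 each called 1 (PGF, lower in IR cells at -1.62 and -1.66), and 2 genes had an unadjusted p under 0.05 (VEGFB at 0.86 and NRP1 at -0.75). In Hep3B-IR against Hep3B-CR cells 3 of 7 were called against 13.7% of all genes. PGF was higher in IR cells by 0.98 (adjusted p = 0.0293, limma). VEGFB was lower by -1.03 (adjusted p = 0.0466) and NRP2 by -1.52 (adjusted p = 0.0499), both close to the threshold. Without CR replicate 1 or CR replicate 2 of Hep3B 0 calls were left, without IR replicate 2 there was 1, without IR replicate 1 there were 2, and edgeR made 1. ANGPTL4 was at -1.87 in IR against CR cells of Hep3B (adjusted p = 0.0988, limma).

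Before the drug the parental lines differed in 4 of the 7 genes, where 50.3% of all genes differed. NRP2 was higher in Huh7 than in Hep3B cells by 3.74 (SE 0.47, adjusted p = 3.37e-05, limma). VEGFC was higher by 0.69 and PGF by 0.76, and VEGFB was lower by -1.37 (adjusted p = 0.0118, 0.0288 and 0.00288 in this order, limma). Leaving out either parental library of Huh7 or Hep3B ended the PGF call (0.67 to 0.86), and the VEGFC call was lost without Huh7 parental replicate 2 (0.67) or Hep3B parental replicate 1 (0.47). VEGFA differed by 0.27 (95% interval -0.45 to 1.00), and NRP1 by 0.60 (-0.11 to 1.31).

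Across the 8 groups the order of mean levels differed from gene to gene. VEGFA ran from 64.3 ± 9.85 CPM in Hep3B parental to 326 ± 59.2 CPM in Hep3B-IR cells (SD, n = 2), followed downward by Hep3B-CR, Huh7-IR and Huh7-CR cells. Its libraries did not overlap between Hep3B-IR and Hep3B-CR (284 against 276 CPM at the closest) or between Huh7-IR and Huh7-CR cells. Neither difference was called (0.37 in Hep3B, adjusted p = 0.502, and 0.66 in Huh7, adjusted p = 0.187, limma). Hep3B-CR and Huh7-IR cells overlapped in VEGFA, as did Huh7-CR and the DMSO groups. VEGFC ran from 6.13 ± 0.28 CPM in Hep3B-CR to 32.9 ± 2.44 CPM in Huh7 DMSO cells. Neighbours in its order overlapped only between Huh7-CR and Huh7-IR and between Huh7-IR and Hep3B parental cells. The share of all genes without such overlap was not counted, so these orders are a description. NRP2 ran from 4.01 ± 0.10 CPM in Hep3B parental to 139 ± 1.05 CPM in Huh7-CR cells, and ANGPTL4 from 0.02 ± 0.03 CPM in Hep3B parental to 8.90 ± 0.54 CPM in Hep3B-CR cells, where Huh7 DMSO cells followed at 6.23 ± 8.19 CPM.

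The receptors of these ligands were at or near 0, apart from FLT1 in untreated Huh7 cells. FLT1, the VEGFR1 receptor bound by VEGFA, VEGFB and PGF, stood at 1.77 to 2.77 CPM in the 4 untreated Huh7 libraries and at 0.11 CPM or less in all 12 others. It was called lower in Huh7-IR and Huh7-CR cells, at -1.64 in each (adjusted p = 5.55e-06 and 9.55e-06, limma), values that the constant of 1 CPM shrinks. FLT1 passed the filter only through the 4 untreated Huh7 libraries in which it was high, so these calls are a description. The resistant libraries held 3 reads per group against 319 in parental cells. In reads FLT1 was 79.3-fold lower in IR (counting interval 26.9 to 387) and 105-fold lower in CR cells (35.5 to 510). The main VEGFA receptor KDR stayed at 0 to 0.08 CPM, the VEGFC receptor FLT4 at 0 to 0.27, the angiopoietin receptor TEK at 0 to 0.22 and its relative TIE1 at 0 to 0.03 CPM. Among the other ligands VEGFD, a lymphatic factor, stood at 2.26 to 2.68 CPM in untreated and 0.14 to 0.78 CPM in resistant Huh7 libraries and was called lower in IR (-1.30) and CR cells (-1.58). VEGFD was below 1 CPM in the 12 other libraries, so its calls too are a description. ANGPT1, the activating angiopoietin, stood at 26.9 to 63.8 CPM in Huh7 and at 0.04 CPM or less in Hep3B libraries, and was called lower in Huh7-IR cells (-0.70). ANGPT4 had 0 reads in all 16 libraries.

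Semaphorins bind neuropilins and plexins carry their signal into the cell. Of 11 semaphorins and plexins tested (12 listed), 7 were higher and 1 lower in IR and 8 and 1 in CR cells of Huh7, where 36.0% and 24.5% of all genes were higher, with medians of 1.72 and 1.66 on the log2 scale. In Hep3B 2 were higher and 2 lower in IR and 3 and 2 in CR cells, where 18.3% and 23.6% of all genes were higher, with medians of 0.097 and 0.17. SEMA3C, a secreted semaphorin that signals through neuropilins, was higher in all 4 comparisons, by 2.82, 3.19, 1.13 and 2.04. PLXNA2, a plexin that pairs with neuropilins, was higher in all 4 as well, by 2.37, 2.77, 0.75 and 1.38, although both Hep3B DMSO libraries, at 19.9 and 24.5 CPM, lay above both Hep3B-IR libraries. SEMA3B was higher in Huh7-IR (4.24) and Huh7-CR cells (2.38) and not called in Hep3B cells.

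Of 5 genes tested (6 listed) for VEGF processing and neuropilin trafficking, 2 were higher and 2 lower in Huh7-IR and 1 and 1 in Huh7-CR cells. Of all genes, 57.5% and 41.3% were called there in either direction. By limma 0 of the 5 were called in either resistant group of Hep3B, where 32.0% (IR) and 38.8% (CR) of all genes were called. FURIN, a protease that processes VEGFC, was lower in Huh7-IR (-1.90) and Huh7-CR cells (-1.47). GIPC1, an adaptor of the neuropilin tail, was higher in them (1.40 and 0.92).

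**Figure D5:**
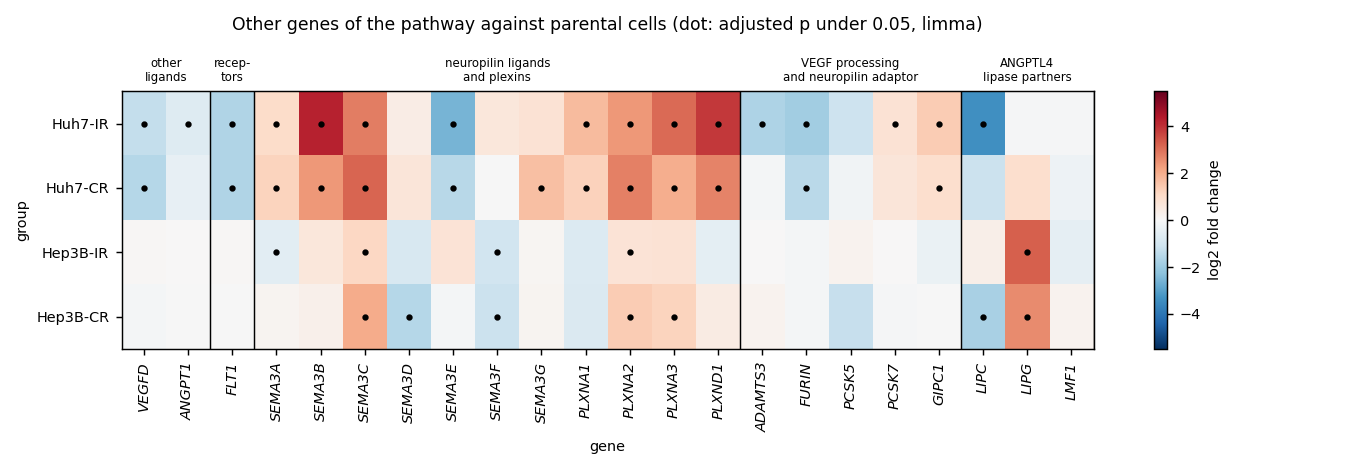
Log2 fold change against parental cells (colour) of 22 other genes of the pathway that were tested, in 4 resistant groups, with a dot where the adjusted p was under 0.05 (limma). SEMA3C and PLXNA2 are higher in all 4 groups, and most dots among the semaphorins and plexins belong to Huh7 cells.

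For each tested member the 3 genes with the most similar pattern over the 16 libraries were found by Pearson's correlation of log2(CPM + 1), a description since libraries of a group share line and treatment. For VEGFA they were CDKN1A (r = 0.95), ATXN1 and TCP11L2 (both 0.94). NRP2 was most like RGL1 (0.98), NMI and BDNF (0.96 and 0.95), and PGF most like B4GALNT1, BMP8A and SPRY1 (0.96, 0.96 and 0.94). VEGFB was followed by COX19, ESRRA and C10orf95-AS1 (0.96 to 0.95), and VEGFC by SS18L2, ATP5MC1 and PRAME (0.95 to 0.94). ANGPTL4 (GPR157, AIG1 and RBCK1) and NRP1 (LOC730101, PRDX3 and ANAPC15) had lower values, of 0.93 to 0.89 and 0.89 to 0.88.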

How the data were processed

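The authors deposited CPM (read counts scaled to a common total) for 26258 genes in 16 libraries, made, per the study's methods and processing notes, by alignment with STAR to hg19 and counting of reads over RefSeq exons. Strand use in counting is not given in the sources used here. The labels name 2 replicates a group and the methods triplicates, and they also differ on the library kit and sequencer. In every library the values were whole multiples of 1 read (100% within 0.05 reads), so reads were recovered, 46613302 to 76860251 a library. Gene IDs were matched to symbols for 26111 genes. log2(CPM + 1) was fitted with limma 3.58.1 (R 4.3.3) over 8 groups and all 16 libraries, for the 15019 genes that reached 1 CPM in 2 or more libraries, without a replicate block. Calls used a Benjamini-Hochberg adjusted p under 0.05. An exact permutation test of 2 against 2 libraries cannot go below 0.333. The fits were tested on simulated data.

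Alternatives were edgeR 4.0.16 and DESeq2 1.42.0 on the recovered reads, other scalings, constants, filters and references, a rule of unadjusted p under 0.05 with a log2 fold change of at least 0.58, a replicate block, single libraries left out and, chosen after seeing the data, removal of a GC trend (14424 genes) and canonical transcript lengths. Coordinates are from GENCODE on GRCh37. All 8 members are named, with the receptors and other ligands of the family. From each further list at most 3 genes are named, those with the largest mean change among genes called the same way in at least 2 of the 4 comparisons; CA9, CDH5, KDR, TEK and TIE1 are named beside this rule for their role. The list of other angiopoietin-like genes is not reported here. The members and lists were chosen with earlier results of these data known.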

Additional observations from a re-analysis of the deposited data

Results flagged for a closer look

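In 3 genes the change in resistant cells differed between the lines by a test of the difference itself (limma, Benjamini-Hochberg adjusted over all genes, where 31.6% of genes differed). For PGF the change in Huh7 minus that in Hep3B cells was -2.56 (adjusted p = 0.000118), from means of -2.13 and 0.44. For NRP2 it was -2.36 (adjusted p = 0.00821), from means of 0.71 and 3.07. For VEGFC it was 0.71 (adjusted p = 0.0413), from means of -0.44 and -1.15. With DMSO cells as the reference the values were -2.84 for PGF, -1.12 for NRP2 and -0.22 for VEGFC, of which PGF was called. With 1 of the 12 parental, IR and CR libraries left out, the VEGFC call was lost in 9 cases (0.50 to 0.75) and kept without Huh7-IR replicate 2, Huh7-CR replicate 2 or Hep3B parental replicate 1.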

How the results depend on the processing

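Of 1267 values of single genes under an alternative, 1126 kept their direction and their side of the threshold, 55 lost a call, 54 gained one and 32 changed sign. The number of members called changed by over 1.5 times in these cases. Under the rule of unadjusted p and size it was 4 in Huh7-CR (37.0% of all genes) and 5 for the line difference (35.0%). By that rule it was 2 in Huh7-IR against CR cells (21.0%), and the DMSO groups gave 2 for Huh7 (14.5%) and 1 for Hep3B (8.06%). DESeq2 gave 1, 1, 1 and 6 for Huh7 DMSO, Hep3B DMSO, Huh7-IR against CR and the line difference (14.5%, 4.31%, 20.3% and 33.1% of all genes), and edgeR gave 1 in Huh7-IR against CR (12.9%) and 1 in Hep3B-IR against CR cells (11.9%). With only the compared groups in the fit it was 5 in Huh7-CR (46.8% of all genes), 1 in Hep3B-IR against CR (10.7%) and 5 for the line difference (34.6%). Without a filter it was 2 in Huh7-CR (26.9%) and 0 in Hep3B-IR against CR cells (8.22%), with DMSO as the reference 3 in Huh7-CR (41.8%), and with the GC trend removed 1 in each comparison of IR with CR cells (15.6% in Huh7 and 14.7% in Hep3B). Leaving out 1 library gave 0 to 3 in Huh7 DMSO, 0 to 2 in Huh7-IR against CR, 0 to 2 in Hep3B-IR against CR and 2 to 3 between the parental lines, and 2 to 4 for the line difference.

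Changes of sign were found in values that had not been called, apart from VEGFC in the line difference (-0.22 with DMSO as the reference). With that reference ANGPTL4 was -0.17 in Huh7-IR and -0.31 in Huh7-CR, and NRP1 0.16 in Hep3B-IR cells. With the GC trend removed NRP1 was -0.11 in Huh7-CR, VEGFB -0.068 and PGF -0.028 in Huh7 DMSO, PGF -0.24 and NRP2 -0.0063 in Hep3B DMSO, and ANGPTL4 -0.35 in Huh7-IR against CR cells. Under quantile normalization NRP1 was 0.012 in Huh7 DMSO cells and 0.021 in the line difference, PGF -0.081 and NRP2 -0.14 in Hep3B DMSO, and ANGPTL4 -0.047 in Huh7-IR against CR cells. NRP1 in Huh7-CR cells was -0.051 by edgeR, -0.040 by DESeq2 and -0.052 with TMM factors. With 1 library left out NRP1 ranged from -1.43 to 0.018 in Huh7-IR, -0.039 to 0.13 in Huh7-CR, -0.16 to 0.090 in Huh7 DMSO and -0.41 to 0.32 in the line difference. In Huh7 DMSO cells VEGFA then ranged from -0.020 to 1.06 and VEGFB from -0.19 to 0.80, NRP2 in Hep3B DMSO cells from -0.0078 to 0.075, and in Huh7-IR against CR cells VEGFC from -0.43 to 0.0061 and ANGPTL4 from -0.28 to 0.54. The cause was not tested. All-gene medians moved with scaling, from 0.19 to 0.07 by edgeR in Huh7-IR cells.

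Replicate differences correlated between groups at -0.22 to 0.44, with 0.41 between the DMSO groups of both lines and 0.44 between IR and CR cells of Huh7, so not every pair of groups deviated together and the replicate numbers were not taken as pairing the samples. With a replicate block the count fell from 3 to 2 in Hep3B-IR against CR cells, where VEGFB lost its call, and against parental cells it was 4 (IR) and 1 (CR) in Huh7 and 4 in both Hep3B groups. Counting depth limits ANGPT2, ANGPTL4 in parental Hep3B and PGF in resistant Huh7 cells most.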

Other observations

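Other lists that border on these genes were counted against parental cells in IR and then CR cells, first of Huh7 and then of Hep3B. Of all genes tested 36.0%, 24.5%, 18.3% and 23.6% were higher and 21.5%, 16.8%, 13.7% and 15.2% lower, with medians of 0.19, 0.066, 0.061 and 0.11 on the log2 scale. Of 8 angiogenesis inhibitors, 2, 0, 1 and 1 were higher and 2, 2, 2 and 1 lower, with medians of -0.04, -0.11, -0.20 and 0.16 on the log2 scale. SERPINF1, the antiangiogenic factor PEDF, was lower in the first 3 comparisons (-2.33, -2.32 and -1.13), and THBS2, a thrombospondin, was higher in Hep3B-IR (0.67) and Hep3B-CR cells (3.15). THBS2 was below 1 CPM in 13 of the 16 libraries. ADAMTS1, a protease that binds VEGFA, was lower in both Huh7 groups (-1.63 and -1.35).

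Of 13 hypoxia-induced genes, 3, 4, 0 and 1 were higher and 2, 0, 1 and 1 lower, with medians of 0.39, 0.22, 0.29 and 0.53. DDIT4, an inhibitor of mTOR signaling, was higher in 3 of the 4 (4.54, 4.12 and 2.55 in Hep3B-CR cells). Of 8 PPAR target genes, the class of ANGPTL4, 1, 1, 0 and 2 were higher and 4, 2, 0 and 2 lower. FABP1, a fatty acid carrier of the liver, was lower in 3 of the 4 (-4.84, -4.08 and -3.92 in Hep3B-CR cells), and PDK4 was higher in both Huh7 groups (1.61 and 1.15). Of 3 lipases and partners tested (5 listed), LIPG, the endothelial lipase, was higher in Hep3B-IR (3.29) and Hep3B-CR cells (2.61), and LIPC, the hepatic lipase, was lower in Huh7-IR (-3.39) and Hep3B-CR cells (-1.77).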
